A study of Mus musculus with 6 samples.

Results

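Expression of 10 genes of the Hippo and YAP pathway was examined in 6 mouse RNA-seq libraries, 3 from a vector control (control) and 3 from cells in which S100a8 had been targeted with lentiviral Cas9 (knockout). The genes were chosen by symbol, and all 10 were found among the 18051 genes of the deposited table: Yap1, Wwtr1, Tead1, Lats2, Amotl2, Ajuba, Ankrd1, Axl, and Cyr61 and Ctgf, which the table lists as Ccn1 and Ccn2. The labels call both groups hematopoietic stem cells and give no age, strain or compound, whereas the study's text describes lentiviral knockout of S100a8 in puromycin-selected mouse embryonic fibroblasts sequenced after glycyrrhizic acid had been added. Whether the cells were a pool or a clone, and whether the compound was present, is not given for these libraries. The labels also do not say that replicates were separate cultures, so the p-values speak for library-to-library spread alone and that spread may be technical.

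The Hippo pathway is a kinase cascade that links cell contact, cell shape and tension to gene expression. When it is active, MST and LATS kinases phosphorylate the coactivators YAP and TAZ, which are then held in the cytoplasm or degraded. When it is inactive, YAP and TAZ enter the nucleus and bind TEAD transcription factors on genes such as Ccn1, Ccn2 and Ankrd1. In cultured fibroblasts, YAP and TAZ are known for their response to stiff or stretched surfaces. Because the regulation acts on protein phosphorylation and location, mRNA levels of YAP and TAZ alone do not measure their activity.

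Levels are deposited FPKM, a fragment count scaled to transcript length and to the total of mapped fragments, and differences are knockout minus control on the log2(FPKM + 1) scale. Genes with a mean of at least 1 FPKM were tested with limma (linear model over the 6 libraries, Benjamini-Hochberg adjustment over all 11112 tested genes, threshold 0.05), and all 10 Hippo and YAP genes passed that filter. "Rose" and "fell" are used only for genes past the threshold. Of all tested genes, 50.2% passed, 23.6% higher and 26.7% lower in the knockout, with a median difference of -0.02. Against this, 5 of the 10 genes rose, 2 fell and the other 3 stayed short of the threshold (median 0.12). Values of the groups did not overlap for 7 of the 10, against 60.7% of all tested genes. Of these, 5 lay higher (28.8% of all) and 2 lower (31.9% of all). A called difference of 1 or more in size was found for 2 of the 10, Ccn2 and Ankrd1, against 8.1% of all tested genes, and Lats2 lay just under it. With 10 genes such shares do not set the list apart from the background, and the genes are described one by one.

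S100a8 itself was read at 3.67, 1.61 and 3.95 FPKM in control and had a listed value of 0 in each of the 3 knockout libraries. Of 12 fibroblast markers, 10 had a mean of at least 10 FPKM, and their summed level was 4601 to 4627 FPKM in control and 7005 to 7479 in knockout libraries. Of 11 hematopoietic stem cell markers in the table, all 6 libraries gave 0 FPKM for Ptprc and for Kit, and the sum, mostly Ly6a, was 442 to 460 FPKM in control and 144 to 172 in knockout. The summed epithelial markers stayed at or below 0.63 FPKM in every library. The lists did not move as a whole. Of 11 tested fibroblast markers 9 rose, Pdgfra did not pass (-0.07) and Dcn fell by 3.57, from 67.2 to 4.73 FPKM on average. Among the 9, Thy1 was listed at 0 in every control library and at 3.78, 4.18 and 3.7 FPKM in knockout. It passed the filter only through the knockout libraries. Of 5 tested stem cell markers Ly6a, Cd34 and Gata2 fell, and Runx1 and Procr did not pass. The part of these markers in the results on the 10 genes was not tested, and in bulk RNA fewer cells of a type and less RNA per cell cannot be told apart. Knockout replicate 2 stood apart from the other knockout libraries, with log2 values that correlated across genes at 0.986 and 0.990 with them, against 0.998 between replicates 1 and 3.

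The 10 genes spanned a wide range of levels. In control libraries the order by mean FPKM was Axl (226), Ccn1 (137), Amotl2 (77.7), Ccn2 (46.2), Yap1 (41.8), Wwtr1 (34.2), Tead1 (28.2), Ajuba (15.4), Ankrd1 (13.5) and Lats2 (10.9). Neighbours in this order were separated in every library except Ccn2 and Yap1, and Ajuba and Ankrd1, whose values overlapped. In knockout libraries Ccn2 stood above Amotl2, Lats2 stood above Ankrd1, and Ankrd1 was the lowest of the 10. Overlapping neighbours there were Axl and Ccn1, Ajuba and Tead1, and Tead1 and Lats2. FPKM is scaled to transcript length, which allows levels to be set side by side between genes, but values of knockout replicate 2 deviated with length across all genes (given with the plot of its deviations), so the order in the knockout is less firm than that in control.

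**Figure D1:**
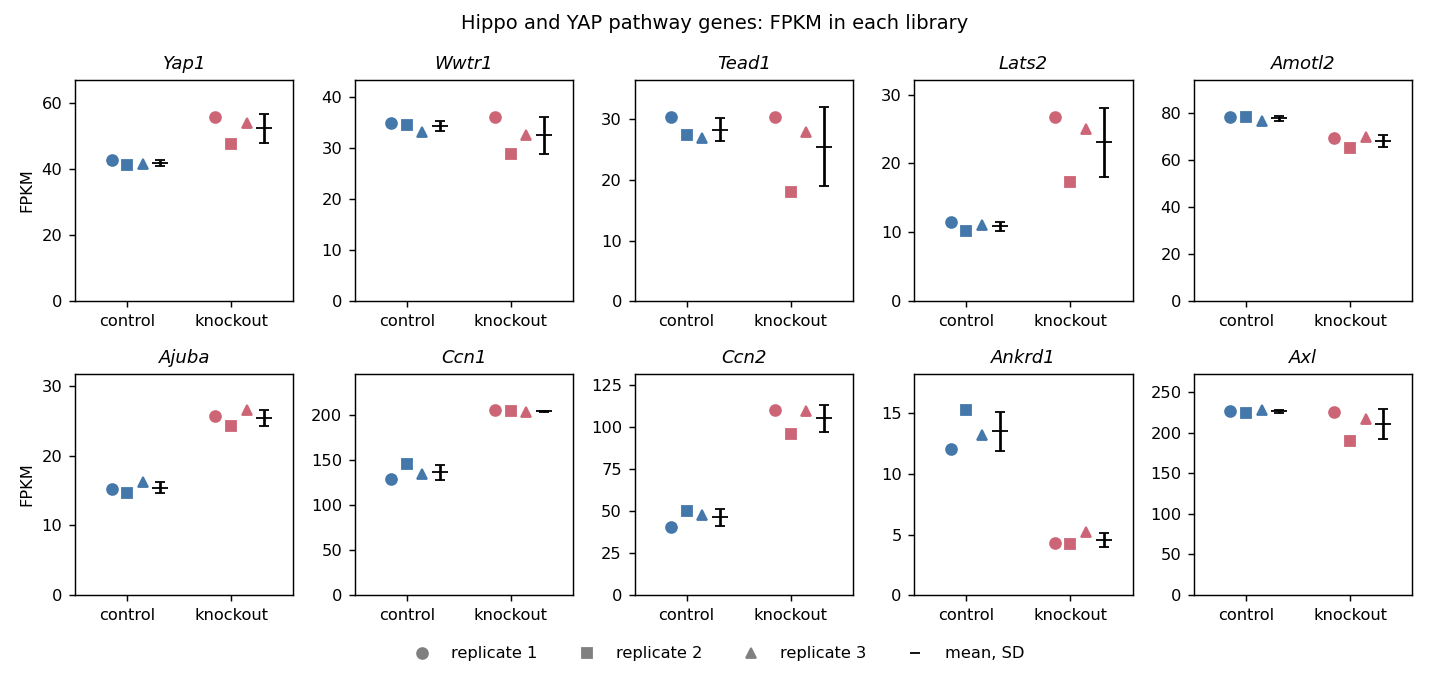
FPKM (vertical axis, from 0) of the 10 genes in each of the 3 control and 3 knockout libraries; points are libraries, marked by replicate number, and bars are the mean and SD. Lats2, Ccn2, Ccn1, Ajuba and Yap1 lie higher in all 3 knockout libraries and Ankrd1 and Amotl2 lower, while Wwtr1, Tead1 and Axl overlap.

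The coactivator Yap1 was modestly higher in the knockout, whereas its paralog Wwtr1, which encodes TAZ, did not pass. Yap1 lies on chromosome 9 at 7931999 to 8004638 (GRCm38) and was read at 42.82, 41.1 and 41.51 FPKM in control replicates 1 to 3 and at 55.82, 47.43 and 53.81 FPKM in knockout replicates 1 to 3. All knockout values lay above all control values, with replicate 2 the lowest of the knockout libraries. Yap1 rose 1.25-fold by the ratio of means (log2 difference 0.31, 95% interval 0.15 to 0.48, adjusted p = 0.00741).

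Wwtr1, on chromosome 3 at 57455644 to 57575910, was read at 35.0, 34.57 and 33.15 FPKM in control and at 36.15, 28.87 and 32.57 FPKM in knockout libraries. The groups overlapped, since knockout replicate 1 was the highest and knockout replicate 2 the lowest of the 6. The difference was -0.08 (95% interval -0.27 to 0.12, adjusted p = 0.476). Yap1 thus made up 55.0 ± 0.643% of the summed Yap1 and Wwtr1 FPKM in control against 61.7 ± 0.889% after knockout (SD, n = 3). This share was higher in all 3 knockout libraries, replicate 2 included (exact two-sided permutation p = 0.1, the smallest that 3 against 3 libraries allow). The interval of the Wwtr1 difference does not show that its level was the same in both groups.

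Among the TEAD factors, which carry YAP and TAZ to DNA, Tead3 was higher in the knockout and the other members were not called. Tead1, on chromosome 7 at 112679356 to 112906784, was read at 30.38, 27.36 and 26.91 FPKM in control and at 30.33, 18.04 and 27.85 FPKM in knockout libraries. A single library, knockout replicate 2, set it apart, and the other 2 knockout values lay within the control range. The difference was -0.18 (95% interval -0.57 to 0.22, adjusted p = 0.426), and 0.04 without knockout replicate 2. Tead3 rose from 19.1 ± 0.263 to 26.2 ± 2.38 FPKM (SD, n = 3), a log2 difference of 0.43 (adjusted p = 0.00187). Mean FPKM of Tead2 was 37.8 in control and 34.4 after knockout, and that of Tead4 was 5.03 and 4.81. The summed level of the Tead1 to Tead4 transcripts was 90.1 ± 0.870 FPKM in control against 90.9 ± 3.23 FPKM after knockout (SD, n = 3). The vestigial-like cofactors Vgll3 and Vgll4, which also bind TEAD proteins, were read at 25.3 and 25.0 FPKM and at 13.2 and 15.5 FPKM, and neither passed. Without knockout replicate 2, 66.5% of all tested genes passed, and of these 5 paralogs and cofactors 3 did, Tead3, Tead2 at -0.18 and Vgll4 at 0.34 (adjusted p = 0.00753 and 0.00166). Tead2 also passed after adjustment for transcript length and GC content (-0.16, adjusted p = 0.0236).

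Lats2, a kinase that phosphorylates YAP and TAZ and whose gene is itself a YAP target, was higher in the knockout. It lies on chromosome 14 at 57689662 to 57746212 and was read at 11.46, 10.13 and 11.04 FPKM in control and at 26.79, 17.35 and 25.06 FPKM in knockout libraries. Even knockout replicate 2, the lowest of the 3, exceeded every control library. Lats2 rose 2.12-fold (log2 difference 1.0, 95% interval 0.65 to 1.34, adjusted p = 0.000897). The paralog Lats1 was read at 10.9 ± 0.969 and 12.04 ± 2.85 FPKM (SD, n = 3) and did not pass (difference 0.10, adjusted p = 0.621), although without knockout replicate 2 it was higher by 0.30 (adjusted p = 0.0022). Lats2 therefore held 48.8, 48.7 and 52.1% of the summed Lats1 and Lats2 FPKM in control and 66.0, 66.5 and 64.9% in knockout libraries. In this ratio of paralogs knockout replicate 2 no longer stood apart (exact two-sided permutation p = 0.1). The share was not adjusted for chromosome, and the other tested genes of chromosome 14 had a median difference of 0.41.

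Of the 19 genes of the core kinase cassette besides Lats2, 3 rose and 6 fell, while 10 missed the threshold (median difference 0.01). Of the MST kinases, Stk4 (MST1) fell by 0.57, with mean FPKM of 9.91 and 6.39. Stk3 (MST2) fell by 0.21 (adjusted p = 0.0303), but this call was lost in 8 of 17 alternatives, among them each control library left out, TPM and centring by chromosome (adjusted p 0.0538 to 0.209). Nf2, encoding merlin, which brings LATS kinases to the membrane, fell by 0.42. The largest fall was that of Stk38l, an NDR kinase related to LATS, which fell by 0.69 with means of 9.34 ± 0.104 and 5.4 ± 0.3005 FPKM (SD, n = 3, adjusted p = 8.00e-05). Tnik and Map4k5, of the MAP4K kinases that act beside MST kinases, rose by 0.67 and 0.40. Tnik averaged 0.617 FPKM in control and 1.58 FPKM after knockout. It passed the filter of 1 FPKM only through the knockout libraries, which limits its call. The call of Map4k5 was lost without any single control library (adjusted p 0.0739 to 0.0992), without knockout replicate 1 or 3 (0.0739 and 0.101), with no filter on low values (0.0554), with TPM (0.0916) and on centring by chromosome (0.279). Sav1 and the MOB coactivators Mob1a and Mob1b, which scaffold the kinases, did not pass, except Mob1a without knockout replicate 2 (0.23, adjusted p = 0.00519). Without that library 14 of the 19 passed (8 higher, 6 lower), at a setting where 66.5% of all tested genes did.

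The angiomotin-like gene Amotl2 and the LIM protein gene Ajuba encode proteins that act on the cascade at cell junctions, and they went in opposite directions. Angiomotins bind YAP and keep it out of the nucleus, whereas Ajuba proteins bind and restrain LATS kinases. Ajuba, on chromosome 14 at 54567469 to 54577661, was read at 15.24, 14.66 and 16.24 FPKM in control and at 25.67, 24.19 and 26.46 FPKM in knockout libraries. The groups were well apart, and all 3 knockout libraries lay close together. Ajuba rose 1.65-fold (log2 difference 0.69, 95% interval 0.54 to 0.84, adjusted p = 7.34e-05). The related LIM genes Limd1 (means of 12.1 FPKM in control and 13.1 after knockout) and Wtip (21.9 and 20.4) did not pass, though without knockout replicate 2 both did, at 0.19 and -0.21 (adjusted p = 0.011 and 0.00459), and Wtip did after adjustment for transcript length and GC content (-0.24, adjusted p = 0.00271). Ajuba's share of the summed FPKM of the 3 genes was 31.2 ± 1.09% in control against 43.2 ± 2.01% after knockout (SD, n = 3, exact permutation p = 0.1). Like that of Lats2, this share was not adjusted for chromosome, and the median of 0.41 on chromosome 14 applies to Ajuba too.

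Amotl2, on chromosome 9 at 102717091 to 102733418, was read at 78.25, 78.37 and 76.46 FPKM in control and at 69.18, 64.89 and 69.76 FPKM in knockout libraries. The values did not overlap, but the difference was small. Amotl2 fell by 0.19 (95% interval -0.32 to -0.06, adjusted p = 0.0214). This call was lost without control replicate 1, 2 or 3 (adjusted p 0.0804, 0.0849 and 0.0687), on scaling to TPM (0.102) and with the replicate block (0.0514), and the difference stayed between -0.26 and -0.16 throughout. Its paralog Amotl1 rose by 0.46 (adjusted p = 0.0151), with means of 16.0 ± 0.862 and 22.7 ± 4.02 FPKM (SD, n = 3). The Amotl1 call was lost with TPM and when control replicate 2, control replicate 3 or knockout replicate 3 was left out (adjusted p 0.0554 to 0.0588). Amot was at 23.5 and 25.5 FPKM and did not pass (0.10), but it was higher without knockout replicate 2 (0.25, adjusted p = 0.00102), on centring by chromosome (0.45, 0.0207) and after adjustment for transcript length and GC content (0.17, 0.0259). The sum of the 3 motin transcripts was 117 ± 2.56 and 116 ± 11.2 FPKM, of which Amotl2 made up 66.3 ± 0.972% in control against 58.7 ± 3.59% after knockout (SD, n = 3, exact permutation p = 0.1).

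Other junction, scaffold and STRIPAK phosphatase genes were mixed. Of 27 in the table, 23 were tested, of which 8 rose, 4 fell and 11 missed the threshold (median 0.10). Wwc1 (KIBRA), which promotes LATS activity, rose by 0.89 (adjusted p = 0.000109), with means of 2.90 ± 0.333 FPKM in control and 6.21 ± 0.443 FPKM after knockout (SD, n = 3). The FERM-domain gene Frmd6 rose by 0.74, and Fat4, a giant cadherin, rose by 0.79, with 7.19, 3.72 and 6.86 FPKM in knockout replicates 1 to 3. Of the STRIPAK genes, which counteract MST kinases, Slmap rose by 0.45 and the striatin gene Strn3 by 0.39, while Strn4 fell by 0.32 and Sike1 fell by 0.26. The calls of Slmap, Strn3 and Strn4 were lost on centring by chromosome, at 0.02, 0.17 and -0.09 (adjusted p = 0.873, 0.106 and 0.202), and that of Sike1 after adjustment for transcript length and GC content (adjusted p = 0.125). Rassf2, which binds MST kinases, fell by 0.74 to 0.54 FPKM, and Rassf1 rose by 0.35. Rassf2 passed the filter on mean FPKM only through its control values. Fat2, Fat3, Dchs2 and Strip2 were not tested, at means of at most 0.0833 FPKM in either group, and Fat3 was listed at 0 throughout. With knockout replicate 2 left out, 18 of the 23 passed, 12 of them higher, beside 66.5% of all tested genes.

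**Figure D2:**
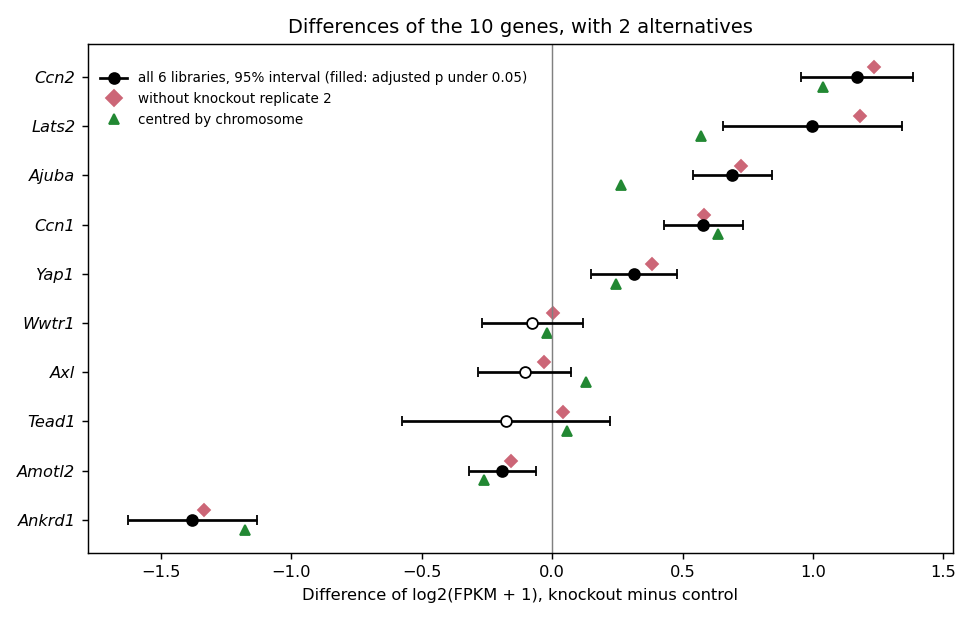
Knockout minus control difference of log2(FPKM + 1) (horizontal axis) of the 10 genes from the limma fit, with 95% intervals and filled circles for adjusted p under 0.05; diamonds leave out knockout replicate 2 and triangles follow centring of the genes of each chromosome. Ankrd1 and Ccn2 lie farthest from 0 on opposite sides, Lats2 and Ajuba move toward 0 on centring, and the interval of Tead1 is the widest.

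The genes described here as YAP and TAZ targets did not move as a group. Ccn2, Ccn1 and Lats2 were higher, Ankrd1 was lower and Axl did not pass. To describe their sequence, promoter windows were read from RefSeq (GRCm38.p6, 250 bases before to 50 after an annotated start). They were searched on both strands for CATTCC, the core of the site that TEAD proteins bind. At least 1 window was at hand for 8 of the 10 genes, all but Tead1 and Ccn2, and each of the 8 had a window with the letters. Of all RefSeq promoter windows 14.7% held them, as did a window of 14.1% of the tested genes. Ankrd1 and Ajuba had 2 matches in a window, as had 1.36% of all windows. The letters are a description of the sequence and not evidence of a bound site. Known YAP targets are among the genes listed, so the shares follow in part from that choice and are not a test.

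The windows of the most clearly changed genes are shown 5′ to 3′ on the gene's own strand, with the matching letters in capitals (CATTCC, or GGAATG where the match is on the opposite strand). They cover the 250 bases before the annotated start for Ankrd1 (chr19:36119845-36120094, minus strand), Ccn1 (chr3:145649986-145650235, minus strand) and Ajuba (chr14:54577662-54577911, minus strand). For Lats2, whose match lies 5 bases into the transcript in 1 of its 2 windows, the 30 bases around it are shown (chr14:57746102-57746131, minus strand).
Ankrd1: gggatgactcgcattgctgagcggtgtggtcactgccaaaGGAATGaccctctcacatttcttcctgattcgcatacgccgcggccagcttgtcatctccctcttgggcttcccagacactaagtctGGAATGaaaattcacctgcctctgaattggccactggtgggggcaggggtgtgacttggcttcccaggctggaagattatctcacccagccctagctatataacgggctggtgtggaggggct
Ccn1: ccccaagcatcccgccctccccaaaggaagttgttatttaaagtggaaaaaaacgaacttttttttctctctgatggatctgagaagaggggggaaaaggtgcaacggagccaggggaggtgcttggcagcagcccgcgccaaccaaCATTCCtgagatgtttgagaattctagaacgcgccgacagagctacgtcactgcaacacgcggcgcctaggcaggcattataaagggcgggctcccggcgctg
Ajuba: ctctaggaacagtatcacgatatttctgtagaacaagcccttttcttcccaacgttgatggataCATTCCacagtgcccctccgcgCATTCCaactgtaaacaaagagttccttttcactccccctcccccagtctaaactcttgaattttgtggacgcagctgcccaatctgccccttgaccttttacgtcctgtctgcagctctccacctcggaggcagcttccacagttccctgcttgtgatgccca
Lats2: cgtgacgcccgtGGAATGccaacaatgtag

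Counting back from the start, the matches begin at -210 and -123 in Ankrd1, at -103 in Ccn1, and at -186 and -164 in Ajuba. Both Ankrd1 matches are written GGAATG and both Ajuba matches CATTCC. Genes with the letters went both ways: Ccn1, Ajuba, Lats2 and Yap1 rose, Ankrd1 and Amotl2 fell, and Wwtr1 and Axl did not pass.

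Ccn2 (CTGF), a secreted matricellular protein and standard readout of YAP activity, had the largest rise of the 10 genes. It lies on chromosome 10 at 24595442 to 24598683 and was read at 40.67, 50.18 and 47.71 FPKM in control and at 109.72, 95.87 and 109.44 FPKM in knockout libraries. All 3 knockout libraries lay far above all 3 control libraries, with replicate 2 the lowest of them. Ccn2 rose 2.27-fold (log2 difference 1.17, 95% interval 0.95 to 1.39, adjusted p = 2.76e-05), and 6.57% of tested genes had a larger difference in size.

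Ccn1 (CYR61), of the same family and on chromosome 3 at 145646971 to 145649985, was read at 129.1, 145.77 and 134.67 FPKM in control and at 205.04, 204.2 and 203.88 FPKM in knockout libraries. The 3 knockout libraries were nearly equal for this gene, replicate 2 included. Ccn1 rose 1.5-fold (log2 difference 0.58, 95% interval 0.43 to 0.73, adjusted p = 0.000192). The other tested CCN genes also rose: Ccn3 by 1.06, from 9.12 ± 0.155 to 20.2 ± 1.16 FPKM, Ccn4 by 0.67 and Ccn5 by 0.62 (SD, n = 3). Ccn6 was near 0, at 0.127 and 0.10 FPKM, and was not tested. The summed CCN level was 229 ± 12.9 FPKM in control against 389.7 ± 11.2 FPKM after knockout (SD, n = 3). Ccn1 and Ccn2 made up 79.6 ± 1.22% and 79.4 ± 0.209% of it, shares that overlapped between groups.

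Ankrd1 (CARP), a nuclear and sarcomeric ankyrin repeat protein and, like Ccn2, a widely used YAP target, moved the other way. On chromosome 19 at 36111965 to 36119844, it was read at 12.07, 15.24 and 13.21 FPKM in control and at 4.27, 4.2 and 5.23 FPKM in knockout libraries. Every knockout value was below every control value, and knockout replicate 2 did not stand apart. Ankrd1 fell by 1.38 on the log2 scale (95% interval -1.63 to -1.13, adjusted p = 2.37e-05), a level 2.96-fold lower, and 5.07% of tested genes had a larger difference. Across all 17 alternative settings its difference stayed between -1.54 and -1.18. Its paralog Ankrd23 was at 1.70 and 2.09 FPKM and did not pass (adjusted p = 0.104), and Ankrd2 was not tested, at means of 0.0467 and 0.183 FPKM.

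The contrast of these targets was large within each library. The ratio of Ccn2 to Ankrd1 FPKM was 3.37, 3.29 and 3.61 in control and 25.7, 22.8 and 20.9 in knockout libraries. These are the genes with the largest rise and the largest fall of the 10 and were paired for that reason, so the ratio is a description with no test. A ratio within a library does not depend on how libraries are scaled to each other. Axl, a receptor tyrosine kinase of the TAM family and a YAP target described in human cells, lies on chromosome 7 at 25756500 to 25788924 and was the most abundant of the 10 genes in control. It was read at 227.0, 224.29 and 227.25 FPKM in control and at 225.28, 189.78 and 216.97 FPKM in knockout libraries. Only knockout replicate 1 reached the control range. Axl differed by -0.11 (95% interval -0.29 to 0.07, adjusted p = 0.292), by -0.03 without knockout replicate 2, and by 0.13 on centring by chromosome.

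Both ligands of the TAM receptors were lower in the knockout. Gas6, its main ligand, fell by 1.19 (adjusted p = 4.57e-05), with means of 14.5 ± 0.555 FPKM in control and 5.84 ± 0.943 FPKM after knockout (SD, n = 3), and Pros1, a ligand of the other TAM receptors, fell by 0.54 from 15.8 to 10.6 FPKM. Mertk rose by 0.56, from 0.767 to 1.6 FPKM, and Tyro3, at 6.91 and 6.26 FPKM, did not pass. Mertk passed the filter on mean FPKM only through its knockout values. Axl made up 96.7 ± 0.0930% of the summed TAM receptor FPKM in control against 96.4 ± 0.201% after knockout (SD, n = 3).

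**Figure D3:**
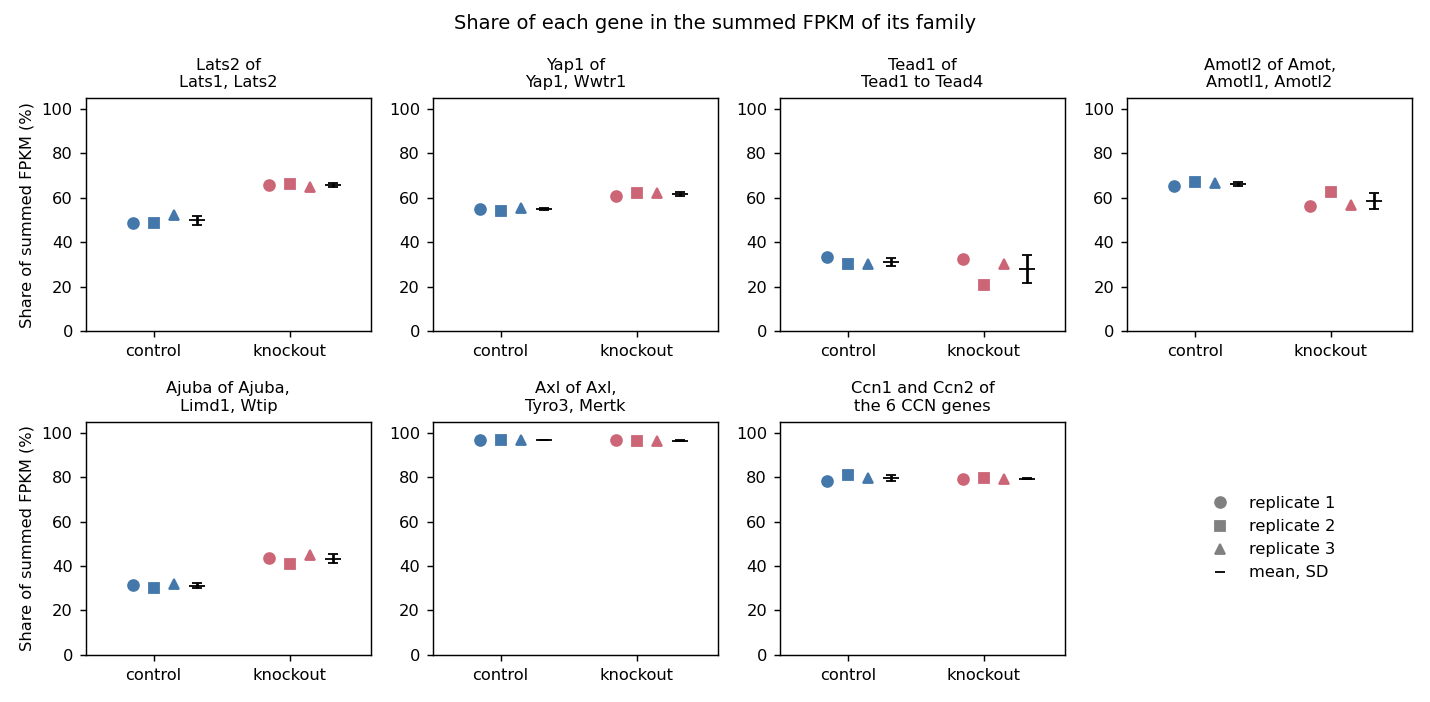
Share of summed FPKM (vertical axis, percent, from 0) held by 6 of the genes, and by Ccn1 and Ccn2 together, within their families; points are libraries, bars the mean and SD. The shares of Lats2, Ajuba and Yap1 are higher in all 3 knockout libraries and that of Amotl2 is lower, while Tead1 and the CCN share overlap and Axl holds over 96% in every library.

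Further targets also went both ways, with more rises than falls. Of the 16 remaining genes of a YAP and TAZ target signature drawn up in human tumours, 8 rose, 5 fell and 3 did not pass (median 0.18). Ccdc80, a secreted matrix protein, rose by 2.24, with means of 24.3 ± 0.22 FPKM in control and 118 ± 2.54 FPKM after knockout (SD, n = 3), the largest difference among the pathway genes examined. Fjx1, related to a Drosophila Golgi kinase that modifies Fat cadherins, rose by 1.57 and went from 2.53 ± 0.178 to 9.50 ± 0.820 FPKM. Foxf2, Tgfb2, Asap1, Gadd45a, Igfbp3 and Rbms3 rose by 0.94, 0.61, 0.46, 0.42, 0.40 and 0.30. F3, the coagulation initiator tissue factor, fell by 0.82, with means of 124 ± 5.70 and 69.5 ± 3.60 FPKM (SD, n = 3), and Arhgef17 fell by 0.63, or by 0.39 on centring by chromosome (adjusted p = 0.0345). Crim1, Nt5e and Nuak2 were the other falls, and the Nuak2 call was lost in 6 of 17 alternatives (adjusted p up to 0.109). Nt5e, at means of 1.45 FPKM in control and 0.747 FPKM after knockout, passed the filter only through its control values. Myof, Dock5 and the phosphatase gene Ptpn14, which restrains YAP, did not pass. Dock5 changed sides with the setting, at 0.21 without knockout replicate 2 and -0.37 on centring by chromosome (adjusted p = 0.00927 and 0.0483), and Ptpn14 passed after adjustment for transcript length and GC content (-0.26, adjusted p = 0.00741).

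Of 10 other genes reported as YAP or TAZ targets, 6 rose, 3 fell and 1, the apoptosis inhibitor Birc5, did not pass (median 0.36). Without knockout replicate 2 Birc5 passed, at -0.17 (adjusted p = 0.00398). Among the calls, the rise of Inhba (0.29) held in only 8 of 17 alternatives (adjusted p up to 0.137). The fall of Dlc1 (-0.31) held in 10 of 16 (adjusted p up to 0.122). Thbs1, thrombospondin, rose by 1.23, with 159.25, 156.3 and 150.5 FPKM in control and 410.71, 291.76 and 406.4 FPKM in knockout libraries. The transcription factor gene Myc rose by 0.60 and the cyclin gene Ccnd1 by 0.56. Areg, an EGF receptor ligand, fell by 1.18, with means of 3.0 ± 0.506 and 0.763 ± 0.22 FPKM (SD, n = 3), and the transglutaminase gene Tgm2 fell by 0.83. Areg passed the filter on mean FPKM only through its control values. Many of these genes answer to other signals as well, such as TGF-beta and growth factors. The larger share of calls in the targets, 13 of 16 and 9 of 10, stands beside 50.2% of all tested genes, and no test of the lists was made.

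**Figure D4:**
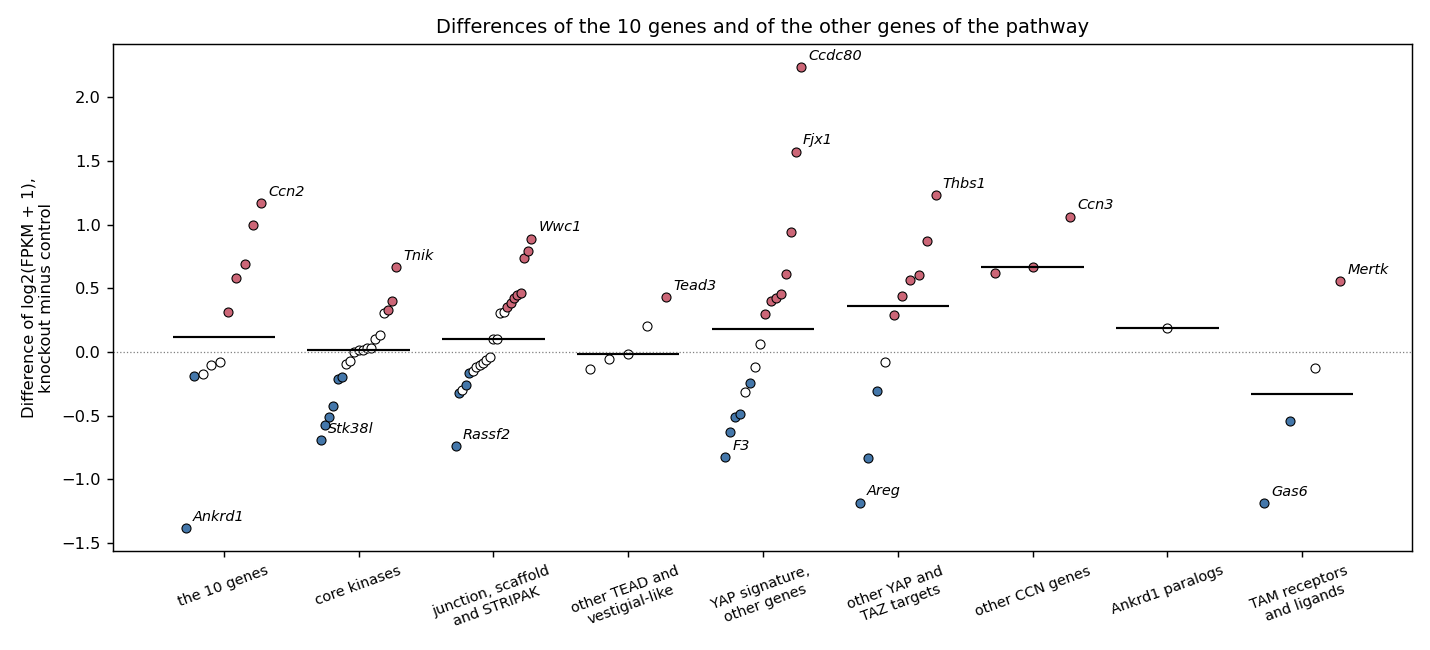
Knockout minus control difference of log2(FPKM + 1) (vertical axis) for each tested gene of the 10 and of the other pathway lists; filled points have an adjusted p under 0.05 (red higher, blue lower) and lines are list medians. Every list with 4 or more tested genes, other than the TEAD and vestigial-like list, holds called genes in both directions, and Ccdc80 and Fjx1 are the highest points.

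Knockout replicate 2 deviated with transcript length across all genes, and less evenly among the 10. In 9 of the 10 genes, all but Ccn1, this library was lower than both other knockout libraries, as it was in 45.1% of tested genes. Its deviation from the mean of replicates 1 and 3 was -0.66 for Tead1, with an annotated transcript of 9964 bases, -0.55 for Lats2 (5191 bases), -0.24 for Wwtr1 (4697 bases) and -0.20 for Yap1 (5282 bases). It was -0.22 for Axl (4265 bases), -0.19 for Ccn2 (2490 bases), -0.14 for Ankrd1 (2020 bases), -0.10 for Ajuba (3397 bases), -0.10 for Amotl2 (4427 bases) and close to 0 for Ccn1 (2019 bases). The longest transcript had the lowest value, but Amotl2 deviated less than the shorter Ankrd1 and Ccn2, and Yap1 about as much as Ccn2. Across 10963 tested genes with a transcript length, its Spearman correlation with length was -0.69, a description over genes of the same libraries, with medians of 0.25 for transcripts up to 2259.5 bases and -0.28 for those of 4853 bases or more. When each library was adjusted for transcript length and GC content, the same 7 genes passed, with Yap1 at 0.35, Lats2 at 1.03 and Tead1 at -0.12.

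**Figure D5:**
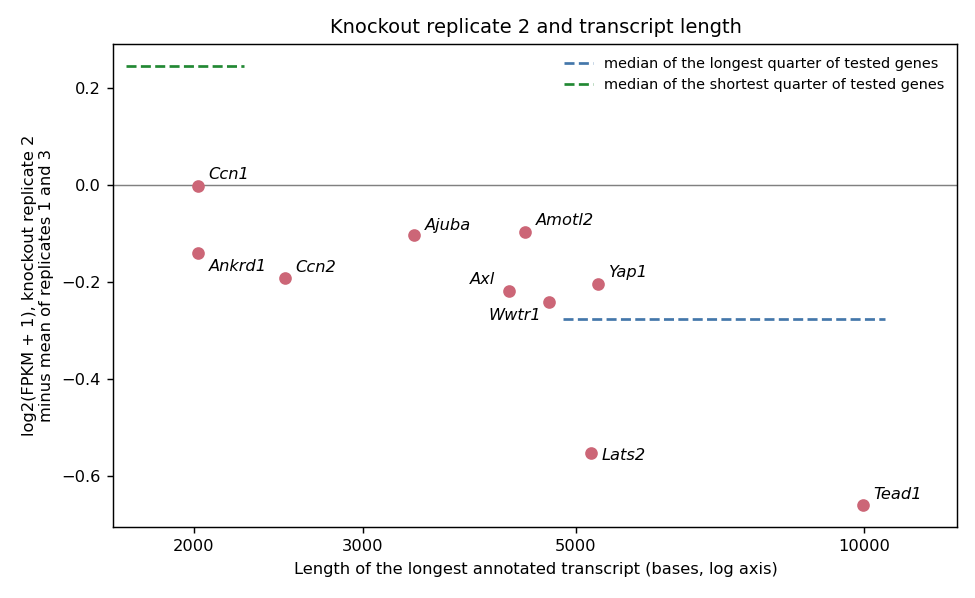
Deviation of knockout replicate 2 from the mean of knockout replicates 1 and 3 in log2(FPKM + 1) (vertical axis) against the length of the longest annotated transcript in bases (horizontal log axis) for the 10 genes; dashed lines are medians of tested genes with transcripts up to 2259.5 bases and of 4853 bases or more. Tead1 and Lats2 lie lowest, at -0.66 and -0.55, Ccn1 lies at 0, and the others lie between with no even order by length.

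Some results also changed when the chromosome of a gene was taken into account. The 367 other tested genes of chromosome 14, which holds both Lats2 and Ajuba, had a median difference of 0.41. When the genes of each chromosome were centred on the median of all, Lats2 stayed higher at 0.57 (adjusted p = 0.0164) and Ajuba at 0.26 (adjusted p = 0.0139), so that their rises were smaller by more than 1.5 times. Medians of the other genes were 0.05 on chromosome 9 (Yap1, Amotl2), 0.11 on chromosome 10 (Ccn2), -0.07 on chromosome 3 (Wwtr1, Ccn1), -0.25 on chromosome 7 (Tead1, Axl) and -0.22 on chromosome 19 (Ankrd1). After centring, Ccn2 was at 1.04, Ccn1 at 0.64, Yap1 at 0.25, Amotl2 at -0.26 and Ankrd1 at -1.18, all past the threshold. What moved whole chromosomes was not tested.

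Genes with the pattern most like that of Ankrd1, the largest difference of the 10, were taken as those whose centred log2 values over the 6 libraries lay nearest by Euclidean distance. They were Cd24a (distance 0.15 in log2 units), Slc2a1 (0.19) and Stc1 (0.22), which fell from 6.70 to 1.97, from 77.4 to 27.2 and from 7.11 to 2.41 FPKM on average. For Wwtr1, the smallest difference, they were Tm9sf3, Sun1 and Gpbp1l1, at distances of 0.04 to 0.05. With only 2 groups of 3 libraries, such nearness mostly reflects a like difference between groups.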

How the data were processed

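RNA-seq was analysed in 3 control and 3 knockout libraries, grouped by their treatment labels. The labels name TRIZOL for extraction of total RNA and DNBSEQ for library preparation. The authors removed adapter, poly-N and low-quality reads. Mapping used HISAT2 2.0.4 and Bowtie2 2.2.5, credited to the notes of the submitters with build mm10, and the methods name RSEM (spelled RESM) for expression. Annotation and strand use are not given in the sources used here. The deposited values were FPKM with 2 decimals for 18051 genes, and the authors' group means in the same table were not used. FPKM holds no counts, and low values fell on no clear steps of single reads (agreement at most 0.24, where 1 would be whole multiples), so the depth is unknown. Library sums were 467255 to 538504 FPKM.

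FPKM was converted to log2(FPKM + 1), which understates changes at low levels, and 11112 genes averaging 1 FPKM or more were fitted in limma 3.58.1 under R 4.3.3 (mean-variance trend, no covariate, Benjamini-Hochberg). Shares within families were compared with exact two-sided permutation tests over libraries. The procedure was checked on simulated data with independent noise for each gene. Those data held neither the length deviation of knockout replicate 2 nor the shifts by chromosome, so the check does not cover these. The members and lists were chosen with earlier results of these data known. The rule for naming was the 10 genes, S100a8, and of each list the genes with a called difference of at least 1 or otherwise the 2 largest rises and falls (at most 4 each), all genes of lists of 5 or fewer genes, and the 3 nearest genes; further genes were named after their values were seen. Chromosomes were taken from RefSeq (GRCm38.p6) and transcript lengths from GENCODE M21, matched by Entrez identifier. Alternatives were other pseudocounts, filters and scalings, no trend, each library left out, the replicate block, centring by chromosome and, chosen after seeing the data, adjustment for transcript length and GC content. Values of a few single genes of the lists are not reported here.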

Additional observations from a re-analysis of the deposited data

How the results depend on the processing

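Of the 10 genes, 9 kept their side of the threshold under all 17 alternatives. Amotl2 missed it without any single control library, with TPM and with the replicate block. The number past the threshold was 7, with 6 under TPM (5 higher, 1 lower), 6 with the replicate block and 6 to 7 when each library was left out in turn. Of 170 values of these genes, 165 stayed on their side, 5 fell short and none reversed with a call, though the differences of Tead1, Axl and Wwtr1, which were not called, changed sign in some settings. Of 400 values of 24 other genes named by the rule, 390 stayed, 9 fell short (Map4k5 and Strn4) and 1, Ankrd23, passed with quantile normalization (adjusted p = 0.0294), which made the count of Ankrd1 paralogs 1, against 0; the cause was not tested. Of 977 values of the 58 remaining tested pathway genes, 888 stayed, 57 fell short, 29 passed anew and 3 reversed in sign with a call before or after. The 3 reversals were on centring by chromosome. Taok2 at 0.038 and Dlg5 at -0.00068 missed the threshold there and so lost their calls. Dock5 passed at -0.37 but was not called before centring (0.06). With a pseudocount of 0.1 the differences of S100a8 (-1.97 to -4.89), Tnik, Rassf2, Areg, Mertk and Nt5e grew by over 1.5 times. Of the TEAD and vestigial-like genes, 2 passed after adjustment for transcript length and GC content, against 1, and 1 to 3 when each library was left out. The core kinase cassette gave 6 to 14 on leaving out libraries, against 9. Both highest counts came without knockout replicate 2. Over all genes 5580 passed, 4204 under the stricter filter of 5 FPKM, where 8602 genes were tested, and 4283 (38.5%, without control replicate 2) to 7391 (66.5%, without knockout replicate 2) on leaving out libraries. Deviations from the group means in same-numbered libraries correlated across genes at 0.327, 0.104 and -0.214. Such deviations within a group are tied to each other, and knockout replicate 2 stood apart. The correlations therefore cannot decide whether same-numbered libraries were paired. No pairing was assumed in the main fit, and with the replicate block 5527 genes passed. FPKM gives no depth, and so no counting limit is stated.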
